A study of Mus musculus with 8 samples.

Results

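The dendritic cell genes described here are 7 genes chosen by name, Zbtb46, Xcr1, Clec9a, Batf3, Irf8, Cd209a and Siglech, out of 25766 entries in the deposited table, of which 22036 are annotated genes. Each of the 7 names matched 1 entry. RNA-seq was performed on whole subcutaneous tumors grown in female mice labelled C57BL/6J after injection of MC38-OVA cells, a mouse line of colon adenocarcinoma whose name marks it as carrying the model antigen ovalbumin. In 4 tumors the injected cancer cells carried shXBP1, a hairpin against Xbp1, and in 4 tumors they carried shNT, the genotype against which shXBP1 is set. The labels place the hairpin in the injected cells, so the dendritic cells of these tumors would be cells of the host mouse. The labels used here do not state the age of the mice, whether each tumor came from its own mouse or whether a line was 1 clone, so the p-values cover only the spread among these tumors, which may be technical.

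Conventional dendritic cells take up antigen in tissues and present it to T cells. Type 1 cells (cDC1) depend on the transcription factors IRF8 and BATF3 and are known for presenting antigen of dead tumor cells to CD8 T cells, while type 2 cells (cDC2) depend more on IRF4. Plasmacytoid dendritic cells (pDC) are a separate lineage known for making type I interferon when they sense nucleic acids. Several of the 7 genes are also used elsewhere: Irf8 in macrophages, monocytes and B cells, Zbtb46 in endothelial cells, and Siglech in microglia.

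Of the 7 genes, Irf8, Zbtb46, Xcr1, Batf3 and Cd209a rose in shXBP1 tumors. Clec9a did not pass the test, and Siglech had too few counts to be tested. The fold changes of the genes that rose ran between 1.30 for Zbtb46, the factor of all conventional dendritic cells, and 5.24 for Cd209a, a lectin of cDC2 and monocyte-derived cells. Levels are given as CPM (read counts scaled by library size, with TMM factors for library composition), fold changes come from edgeR's quasi-likelihood test, and a gene is said to rise or fall at a Benjamini-Hochberg adjusted p below 0.05 over 14907 genes tested. Among all of these genes 16.9% were called higher in shXBP1 tumors and 13.1% were called lower, 30.0% in either direction, and 5 of the 6 tested dendritic cell genes were called higher and 0 lower. The number called higher was 2 without shNT tumor 2, and 3 without shNT tumor 3 or shXBP1 tumor 1 or 3. It was 4 without shXBP1 tumor 2 or shNT tumor 1 or 4, and 6 without shXBP1 tumor 4. Every shXBP1 tumor lay above every shNT tumor for 3 of the 7 genes (Irf8, Zbtb46 and Cd209a), as it did for 16.6% of all genes tested. Cd209a passed the filter on low counts only through the shXBP1 tumors, where it is higher, so the 6 tested genes are not a fair sample of the 7.

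**Figure D1:**
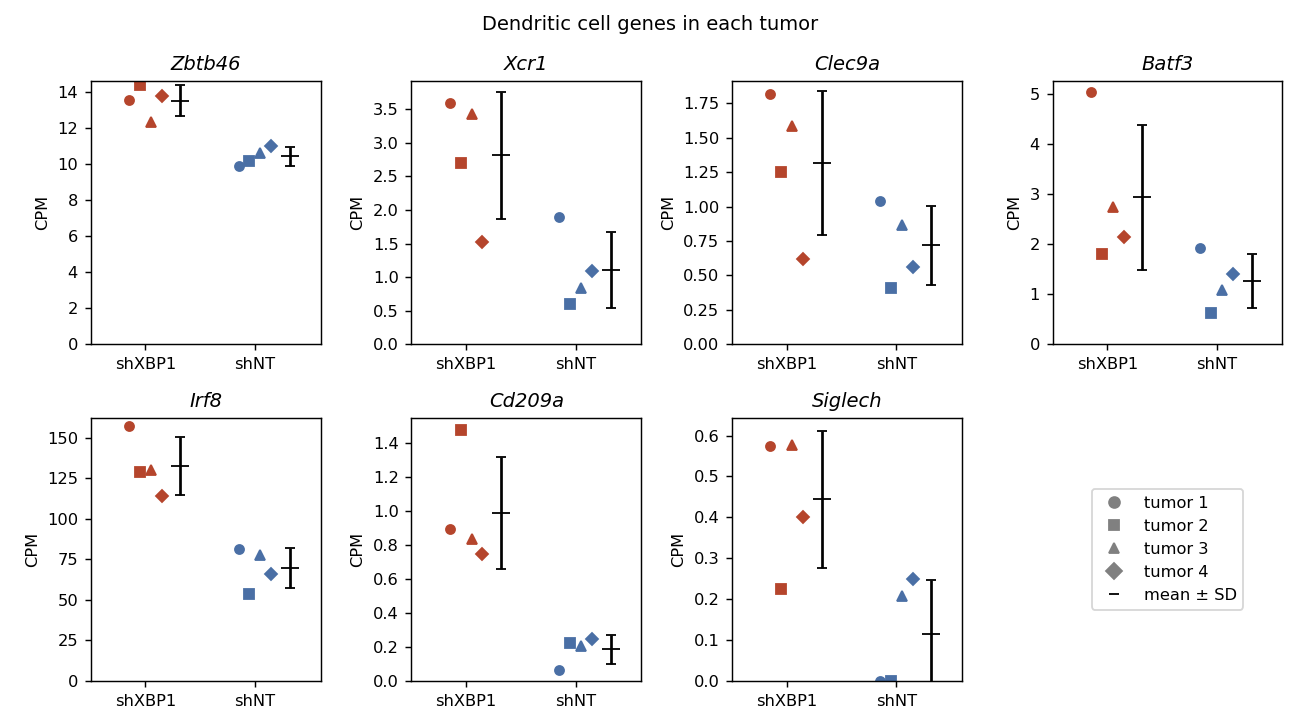
Level of each of the 7 dendritic cell genes in CPM (vertical axes, each starting at 0) in the 4 shXBP1 tumors (left, red) and the 4 shNT tumors (right, blue), with symbols for the tumor number and the mean with its SD in black. For Irf8, Zbtb46 and Cd209a the groups do not overlap, while for Xcr1, Clec9a, Batf3 and Siglech at least 1 shXBP1 tumor lies within the shNT range; the SD bar of Siglech in shNT tumors is cut at 0.

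Total counts per tumor lay between 29070605 and 36012997. Xbp1, the targeted gene, was at 70.9 ± 9.61 CPM in shXBP1 tumors and 101 ± 5.96 CPM in shNT tumors (SD, n = 4 each; log2 fold change -0.51, SE 0.10, adjusted p = 0.00255 in edgeR). Among the shXBP1 tumors, tumor 4 had the lowest level of Xbp1, at 56.6 CPM. Ptprc, which encodes CD45 of all leukocytes, was at 156, 193, 171 and 94.8 CPM in shXBP1 tumors 1 to 4, against 59.4, 42.6, 66.5 and 56.4 CPM in shNT tumors 1 to 4. It was 2.73-fold higher in shXBP1 tumors (adjusted p = 0.00128 in edgeR), and shXBP1 tumor 4 had the lowest level of its group. In whole tumors, fewer cells of a type and less RNA per cell cannot be told apart.

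Among the transcription factors, Irf8 (ENSMUSG00000041515, GRCm38 chromosome 8, 120736358 to 120756694, plus strand) encodes interferon regulatory factor 8, which sets the fate of cDC1 and pDC precursors. Its level was 157, 129, 130 and 114 CPM in shXBP1 tumors 1 to 4, against 81.1, 53.6, 77.5 and 65.8 CPM in shNT tumors 1 to 4. The lowest shXBP1 tumor lay well above the highest shNT tumor. Irf8 was 1.91-fold higher in shXBP1 tumors (95% interval 1.56 to 2.33; log2 fold change 0.93, SE 0.13, adjusted p = 0.000411 in edgeR), and this call held when each tumor was left out in turn (adjusted p between 0.000112 and 0.00203). The authors' deposited table gives a log2 fold change of 0.91 with an adjusted p of 1.1e-09. The annotated locus Gm20388 spans Irf8 on the same strand and had 0 counts in both groups.

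Batf3 (ENSMUSG00000026630, chromosome 1, 191097847 to 191108945, plus strand) encodes a small leucine zipper factor that keeps Irf8 active in cDC1. Its level was 5.03, 1.80, 2.74 and 2.14 CPM in shXBP1 tumors 1 to 4, against 1.92, 0.631, 1.07 and 1.40 CPM in shNT tumors 1 to 4. The groups overlapped, because shXBP1 tumor 2 lay below shNT tumor 1, and shXBP1 tumor 1 stood clearly above the rest. Batf3 was 2.32-fold higher (95% interval 1.29 to 4.17; log2 fold change 1.21, SE 0.39, adjusted p = 0.0334 in edgeR). The call was lost without shXBP1 tumor 1 (log2 fold change 0.82, adjusted p = 0.131 in edgeR) or 3 (0.0612) and without shNT tumor 2 (0.0864), 3 (0.0851) or 4 (0.0587).

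The interferon-gamma activated site (GAS) is a motif found in promoters that respond to interferon-gamma, and Irf8 is a known interferon-gamma response gene. The promoters of Irf8 and Batf3 are shown because both genes rose and both windows hold this motif, searched as TTCNNNGAA, which reads the same on both strands. The sequences are RefSeq promoters of GRCm38.p6, 250 bases before to 50 after a start site, written 5′ to 3′ on the gene's strand with the GAS matches in capitals. The Irf8 window is chr8:120736108-120736407 and the Batf3 window chr1:191098164-191098463, both on the plus strand.
Irf8: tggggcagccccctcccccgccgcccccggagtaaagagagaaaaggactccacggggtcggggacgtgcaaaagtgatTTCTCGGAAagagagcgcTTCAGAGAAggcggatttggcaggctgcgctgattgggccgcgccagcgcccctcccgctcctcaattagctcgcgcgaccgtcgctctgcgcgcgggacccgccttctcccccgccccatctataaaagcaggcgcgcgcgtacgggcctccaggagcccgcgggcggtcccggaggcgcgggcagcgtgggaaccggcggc
Batf3: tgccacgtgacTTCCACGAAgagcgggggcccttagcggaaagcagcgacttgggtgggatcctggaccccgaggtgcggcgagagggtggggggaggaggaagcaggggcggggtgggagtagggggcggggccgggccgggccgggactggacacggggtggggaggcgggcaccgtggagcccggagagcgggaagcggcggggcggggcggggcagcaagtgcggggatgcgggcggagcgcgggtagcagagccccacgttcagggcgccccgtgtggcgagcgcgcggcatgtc
The Irf8 window holds 2 matches, TTCTCGGAA starting 171 bases and TTCAGAGAA starting 153 bases before the start site, and the Batf3 window holds TTCCACGAA starting 239 bases before it. A second Irf8 start site in RefSeq, and the Batf3 start in GENCODE, lie elsewhere, and the second Irf8 window held no match. The Zbtb46 window (chr2:181424339-181424638, minus strand) lies inside the annotated gene and not at its GENCODE start. GAS letters occurred in the windows of 3 of the 7 genes (Irf8, Batf3 and Siglech) and in 8.30% of 32851 promoter windows. The composite of an ETS and an IRF site, written GGAA, 2 bases of any kind and GAAA on either strand, occurred in the window of Cd209a (2.72% of all windows), the AP-1 site TGANTCA in that of Zbtb46 (7.81%), and the PU.1 core GAGGAA on either strand in those of Batf3 and Siglech (28.3%). The tandem IRF repeat, GAAA, 2 bases of any kind and GAAA on either strand (3.44%), was in none of the 7, and the windows of Xcr1 and Clec9a held none of these motifs. In these windows no match overlapped another, and a match is a description of letters, not of binding.

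Zbtb46 (ENSMUSG00000027583, chromosome 2, 181387762 to 181459426, minus strand) encodes a zinc finger repressor found in conventional dendritic cells and their committed precursors. Its level was 13.6, 14.4, 12.4 and 13.8 CPM in shXBP1 tumors 1 to 4, against 9.89, 10.2, 10.6 and 11.0 CPM in shNT tumors 1 to 4. The groups did not overlap, but they lay close together, and the spread within each was the smallest of the 7 genes relative to its mean. Zbtb46 was 1.30-fold higher (95% interval 1.10 to 1.53; log2 fold change 0.37, SE 0.11, adjusted p = 0.0226 in edgeR). The call was lost without shXBP1 tumor 2 (adjusted p = 0.0626 in edgeR) and without shNT tumor 1 (0.0570) or 2 (0.0579), with fold changes on the log2 scale between 0.35 and 0.42 over all 8 such fits. Endothelial markers, of a cell type that also uses Zbtb46, summed to 104 to 114 CPM in shXBP1 tumors and 49.7 to 62.1 CPM in shNT tumors, with 5 of 8 called higher, and their part in the Zbtb46 result was not tested.

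Among the surface receptors of cDC1, Xcr1 (ENSMUSG00000060509, chromosome 9, 123852315 to 123862029, minus strand) encodes the receptor for the chemokine XCL1. Its level was 3.60, 2.70, 3.44 and 1.53 CPM in shXBP1 tumors 1 to 4, against 1.89, 0.599, 0.832 and 1.09 CPM in shNT tumors 1 to 4. Tumors 1 to 3 of shXBP1 lay above every shNT tumor, and shXBP1 tumor 4 fell below shNT tumor 1. Xcr1 was 2.54-fold higher (95% interval 1.44 to 4.48; log2 fold change 1.34, SE 0.38, adjusted p = 0.0177 in edgeR). The authors' deposited table gives a log2 fold change of 1.06 and an adjusted p of 0.00333. The call was lost without shXBP1 tumor 1 (adjusted p = 0.0585 in edgeR) or 3 (0.0543) and without shNT tumor 2 (0.0510) or 3 (0.0532), and without shXBP1 tumor 4 the adjusted p was 0.00353.

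Clec9a (ENSMUSG00000046080, chromosome 6, 129408862 to 129424763, plus strand) encodes a C-type lectin receptor that binds actin filaments exposed by dead cells. Its level was 1.82, 1.25, 1.59 and 0.616 CPM in shXBP1 tumors 1 to 4, against 1.04, 0.410, 0.866 and 0.561 CPM in shNT tumors 1 to 4. As for Xcr1, shXBP1 tumors 1 to 3 lay above every shNT tumor and shXBP1 tumor 4 lay among them. The difference did not pass the test (log2 fold change 0.87, SE 0.41, adjusted p = 0.134 in edgeR), and its 95% interval of 0.980-fold to 3.40-fold includes the fold changes of Xcr1 and Batf3. Without shXBP1 tumor 4 it was called higher (log2 fold change 1.11, adjusted p = 0.0377 in edgeR). The counts behind it were 57, 39, 55 and 23 in shXBP1 tumors, against 33, 13, 25 and 18 in shNT tumors. The gene overlaps Clec1b on the same strand, which had 13 counts in all shXBP1 tumors together and 0 in the shNT tumors.

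Cd209a (ENSMUSG00000031494, chromosome 8, 3743397 to 3748984, minus strand) encodes a mouse relative of human DC-SIGN, found on cDC2 and on monocyte-derived dendritic cells. Its counts were 28, 46, 29 and 28 in shXBP1 tumors 1 to 4, against 2, 7, 6 and 8 in shNT tumors 1 to 4, or 0.892, 1.48, 0.837 and 0.750 CPM against 0.0630, 0.221, 0.208 and 0.249 CPM. The groups stood far apart, with shXBP1 tumor 2 the highest and shNT tumor 1 the lowest. Cd209a was 5.24-fold higher (95% interval 2.60 to 10.6; log2 fold change 2.39, SE 0.47, adjusted p = 0.00240 in edgeR), and adjusted p lay between 0.00191 and 0.0106 when each tumor was left out in turn. The authors' comparison holds no value for Cd209a or Siglech. The related genes Cd209b to Cd209g were all below the filter, summing to 1.16 to 1.83 CPM in shXBP1 tumors and 0.252 to 0.624 CPM in shNT tumors, and counting could split reads between these near copies. All 8 monocyte markers were called higher too, and their sum was 777 to 1115 CPM in shXBP1 tumors and 541 to 583 CPM in shNT tumors. Within the shNT tumors the sum did not follow Cd209a, as tumor 1, the lowest in Cd209a, had a sum of 580 CPM. The part of monocytes in the Cd209a result was not tested.

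Siglech (ENSMUSG00000051504, chromosome 7, 55768178 to 55778925, plus strand) encodes a sialic acid-binding lectin that marks pDC. Its counts were 18, 7, 20 and 15 in shXBP1 tumors 1 to 4, against 0, 0, 6 and 8 in shNT tumors 1 to 4. A count of 0 allows up to 3 counts, or 0.0945 CPM in shNT tumor 1 and 0.0946 CPM in shNT tumor 2, counting error only. The shXBP1 tumors summed to 60 counts and the shNT tumors to 14, and shXBP1 tumor 2 lay below shNT tumor 4. The gene fell below the filter; with no filter it gave a log2 fold change of 1.93 (SE 0.93, adjusted p = 0.161 in edgeR), and with single tumors left out the fits that kept the gene gave 2.88-fold to 6.41-fold with adjusted p between 0.0608 and 0.184. Of 6 microglia markers, a cell type that also uses Siglech, 2 were called higher, and Sall1 had 0 counts in every tumor.

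Levels of different genes can be compared only per length, for which the deposited FPKM (fragments scaled by gene length and library size) were used. In shXBP1 tumors the order was Irf8 (41.1 ± 4.61 FPKM), Batf3 (3.20 ± 1.54), Zbtb46 (2.84 ± 0.312), Cd209a (0.579 ± 0.180), Xcr1 (0.551 ± 0.174), Clec9a (0.349 ± 0.133) and Siglech (0.177 ± 0.0709 FPKM; SD, n = 4). In shNT tumors it was Irf8 (21.5 ± 3.42 FPKM), Zbtb46 (2.34 ± 0.0915), Batf3 (1.35 ± 0.571), Xcr1 (0.213 ± 0.107), Clec9a (0.201 ± 0.0560), Cd209a (0.106 ± 0.0469) and Siglech (0.0449 ± 0.0523 FPKM; SD, n = 4). Irf8 stood apart from every other gene in both groups. Neighbours whose tumors overlapped in FPKM were Batf3 with Zbtb46, Cd209a with Xcr1, Xcr1 with Clec9a and Clec9a with Siglech in shXBP1 tumors, and Xcr1 with Clec9a and Cd209a with Siglech in shNT tumors. With CPM per kilobase of all annotated exons, only Cd209a and Xcr1 changed places, in shXBP1 tumors. The length implied by counts and FPKM varied 1.59-fold between tumors for Clec9a and by at most 1.22-fold for the other 6 genes.

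Because Ptprc differed between the groups, each gene was also set against it within each tumor. The differences are given with a two-sided exact permutation test over 70 splits, in which at least 4 of the 6 genes would have to be fully separated for an adjusted p below 0.05, so the adjusted values decide nothing about single genes. Zbtb46 was lower relative to Ptprc in every shXBP1 tumor than in any shNT tumor, by -1.05 on the log2 scale (mean ratio -3.45 ± 0.47 in shXBP1 tumors and -2.41 ± 0.26 in shNT tumors, SD, n = 4 each; exact p = 0.0286, the smallest these splits allow, adjusted p = 0.171). The difference was -0.62 for Clec9a (exact p = 0.0857, adjusted p = 0.171) and -0.48 for Irf8 (exact p = 0.0857, adjusted p = 0.171). It was -0.25 for Batf3 (exact p = 0.571), -0.07 for Xcr1 (exact p = 0.914) and 0.70 for Cd209a (exact p = 0.143, adjusted p = 0.214). When Ptprc (log2 CPM) entered the edgeR model, 0 of the 6 genes were called higher (also 0 at an unadjusted p below 0.05), and the log2 fold changes were 0.36 for both Zbtb46 and Irf8, 0.43 for Batf3, 1.64 for Cd209a, -0.33 for Xcr1 and -1.19 for Clec9a. In that model the median gene had an SE 2.26 times its value without Ptprc.

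**Figure D2:**
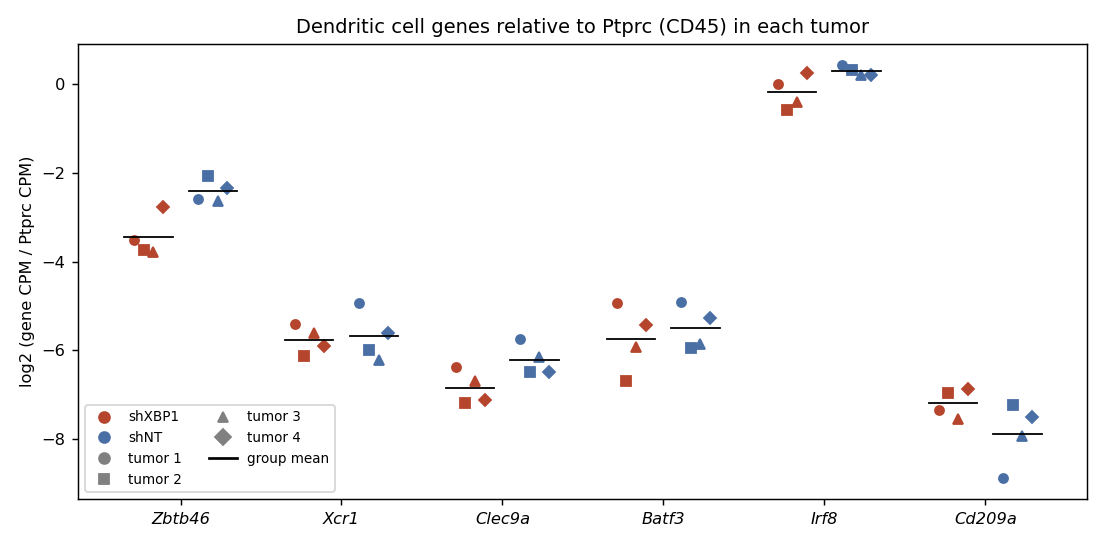
Log2 ratio of each tested dendritic cell gene to Ptprc in CPM (vertical axis) in the 4 shXBP1 tumors (red, left of each pair) and the 4 shNT tumors (blue), with symbols for the tumor number and black lines for group means. The groups are apart only for Zbtb46, with means of -3.45 in shXBP1 and -2.41 in shNT tumors, and they overlap for Xcr1, Clec9a, Batf3, Irf8 and Cd209a.

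The other genes of the same cells were taken from lists chosen with earlier results of these data known, and the median log2 fold change of all genes tested was -0.01. Counts and medians of the lists cover the genes that passed the filter on low counts, and Flt3, Cd7, Rpgrip1, Il12b, Tek, Cd79b and Klra8 reached its limit in all 4 shXBP1 tumors but not in all shNT tumors, while Siglec15 did so in the shNT tumors (named after their values were seen). Of 5 other genes shared by conventional dendritic cells, Jaml, Dpp4 and Flt3 rose and Itgax and Kmo did not pass (median 1.73). The number called higher was 2 without shXBP1 tumor 2 or 3 or shNT tumor 2 or 3, and 5 without shXBP1 tumor 4. Flt3, the receptor of the growth factor on which dendritic cells depend, passed the filter only through the shXBP1 tumors and was at 0.765 ± 0.345 CPM in shXBP1 tumors and 0.207 ± 0.164 CPM in shNT tumors (SD, n = 4 each; adjusted p = 0.0263 in edgeR), and its call was lost without shXBP1 tumor 2 (0.0631) or 3 (0.0934) or shNT tumor 2 (0.0741), 3 (0.0762) or 4 (0.0648). Dpp4, a surface peptidase of cDC1 and T cells, was 3.37-fold higher and Jaml, an adhesion molecule, 3.31-fold higher. Itgax, which encodes CD11c, was at 20.6 ± 7.08 CPM in shXBP1 tumors and 13.5 ± 1.57 CPM in shNT tumors (SD, n = 4 each; adjusted p = 0.0974 in edgeR). It was called without shXBP1 tumor 4 (adjusted p = 0.000142) and in DESeq2 (adjusted p = 0.0357). Kmo, an enzyme of tryptophan breakdown, had an adjusted p of 0.0527 in edgeR and 0.0372 in DESeq2, and was called without shXBP1 tumor 4 (0.0318) or shNT tumor 4 (0.0251).

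Of 13 other cDC1 genes 8 rose, 0 fell, 3 did not pass and 2 were below the filter (median of the tested genes 0.51), and 5 rose without shXBP1 tumor 2. Itgae, which encodes CD103, was 3.75-fold higher (2.13 ± 0.855 CPM in shXBP1 tumors and 0.566 ± 0.136 CPM in shNT tumors, SD, n = 4 each; adjusted p = 0.00215 in edgeR), and T cells carry it too. Id2, a repressor of E proteins, was 3.13-fold higher, Cd24a, a surface glycoprotein, 2.03-fold higher and Naaa, a lysosomal amidase, 1.43-fold higher. Of 12 other cDC2 genes 7 rose, 2 fell, 2 did not pass and 1 was below the filter (median 0.73), and 5 to 8 rose and 2 fell when each tumor was left out. Irf4, the cDC2 counterpart of Irf8 and also a gene of activated T cells, was 3.13-fold higher (7.83 ± 2.03 CPM in shXBP1 tumors and 2.49 ± 0.623 CPM in shNT tumors, SD, n = 4 each; adjusted p = 0.000519 in edgeR). Cd7 was 5.17-fold higher and Ltb, lymphotoxin beta, 4.54-fold higher, and lymphocytes express both. Cd7 passed the filter only through the shXBP1 tumors. The genes that fell were Mgl2, a galactose-binding lectin (log2 fold change -1.19, SE 0.23, adjusted p = 0.00226 in edgeR), and Klf4, a zinc finger factor (named after its value was seen, with a log2 fold change of -0.44).

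Of 16 other pDC genes 5 rose, 5 did not pass and 6 were below the filter (median of the tested genes 0.88), and the number that rose was 3 without shXBP1 tumor 2 or 3 and 7 without shXBP1 tumor 4. Spib, an ETS factor of pDC and B cells, was 3.41-fold higher, and the nucleic acid sensors Tlr7 and Tlr9 were 2.01-fold and 1.90-fold higher. Bst2, a restriction factor induced by interferon in many cells, was 1.81-fold higher. The call of Tlr9 was lost without shXBP1 tumor 2 (adjusted p = 0.0531 in edgeR) or 3 (0.0577). The 5 that did not pass, named after their values were seen, went in both directions. Their log2 fold changes were 0.91 for Rpgrip1, 0.71 for Irf7, 0.23 for Tcf4, -0.05 for Runx2 and -0.68 for Cox6a2.

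**Figure D3:**
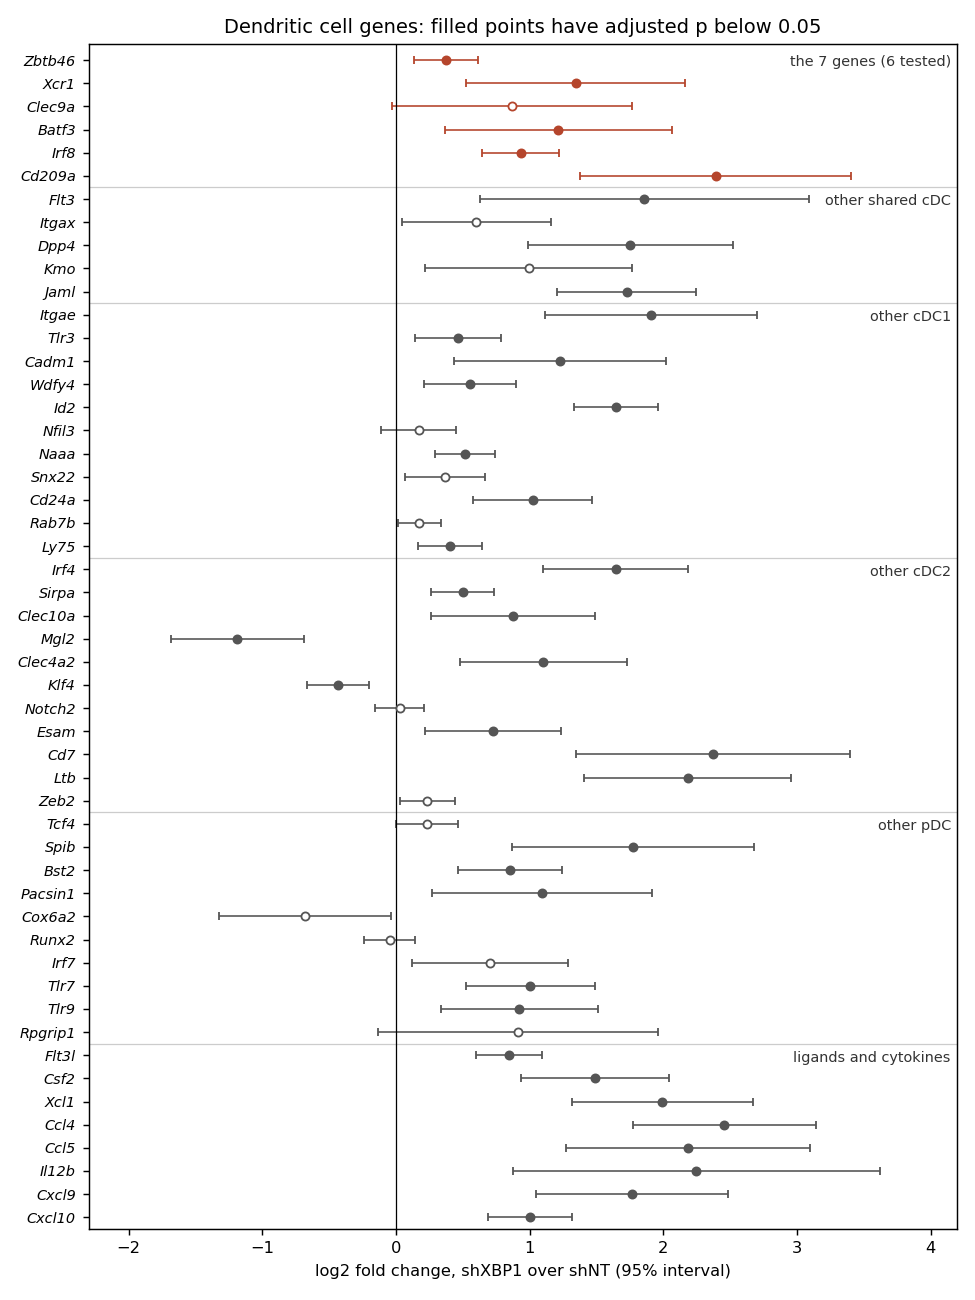
Log2 fold change of shXBP1 over shNT tumors (horizontal axis) with its 95% interval for the 6 tested dendritic cell genes (red, top) and for the other genes of shared, cDC1, cDC2 and pDC lists and of their ligands and cytokines (grey), n = 4 tumors per group. Filled points have an adjusted p below 0.05 in edgeR. All ligands and cytokines lie to the right of 0, and Mgl2 and Klf4 are the only filled points to its left.

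All 8 tested ligands, growth factors and products of dendritic cells rose in shXBP1 tumors (median 1.88), of which Il12b passed the filter only through those tumors, and 2 of the 10 listed, Il12a and Ifnb1, were below the filter with 2 counts each over all 8 tumors. Flt3l, the growth factor that binds Flt3, was 1.80-fold higher (19.3 ± 1.85 CPM in shXBP1 tumors and 10.7 ± 0.820 CPM in shNT tumors, SD, n = 4 each; adjusted p = 0.000236 in edgeR). Xcl1, the ligand of Xcr1 made by natural killer and CD8 T cells, was at 8.86, 10.9, 8.09 and 3.43 CPM in shXBP1 tumors 1 to 4, against 1.64, 2.02, 1.77 and 2.40 CPM in shNT tumors 1 to 4. It was 3.98-fold higher (adjusted p = 0.000650 in edgeR). Tumor 4 was the lowest shXBP1 tumor in both ligand and receptor, as it was in Ptprc and in the sum of T cell markers. In the shNT tumors the order differed, with Xcl1 highest in tumor 4 (2.40 CPM) and Xcr1 highest in tumor 1 (1.89 CPM). Ccl4, an inflammatory chemokine, was 5.49-fold higher and Cxcl10, an interferon-induced chemokine, 2.002-fold higher.

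Several relatives of the transcription factors and of Clec9a rose in shXBP1 tumors. Batf and Batf2 rose 3.16-fold and 2.28-fold, and Irf1, Irf5 and Irf9 rose 1.81-fold, 1.91-fold and 1.53-fold, among 6 of 7 tested IRF genes that rose. Of the neighbours of Clec9a in the same lectin cluster Clec12a rose 3.19-fold and Clec7a, also known as dectin 1, rose 1.54-fold, while Olr1 and Clec1a did not pass. The call of Clec7a was lost in 7 of the 8 fits that left out 1 tumor, with adjusted p up to 0.119 in edgeR.

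Many markers of other cells that could hold these transcripts were called higher too. Of 10 macrophage markers 9 were called higher, and their sum was 1249 to 2395 CPM in shXBP1 tumors and 723 to 1067 CPM in shNT tumors. T cell markers (9 of 9 called higher) summed to 108 to 312 CPM in shXBP1 tumors and 36.3 to 70.9 CPM in shNT tumors, and natural killer cell markers (5 of 6) summed to 28.3 to 45.1 CPM in shXBP1 tumors and 11.6 to 12.4 CPM in shNT tumors. Of 7 B cell markers 2 were called higher (0 without shXBP1 tumor 1, and 1 without shXBP1 tumor 2 or 3 or shNT tumor 2 or 4), with a sum of 4.87 to 6.92 CPM in shXBP1 tumors and 2.90 to 3.24 CPM in shNT tumors. The 6 microglia markers summed to 105 to 153 CPM in shXBP1 tumors and 87.5 to 102 CPM in shNT tumors. The 6 dendritic cell genes other than Irf8 summed to 19.2 to 25.5 CPM in shXBP1 tumors and 12.02 to 14.8 CPM in shNT tumors. The part of these other cells in the results on the 7 genes was not tested.

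**Figure D4:**
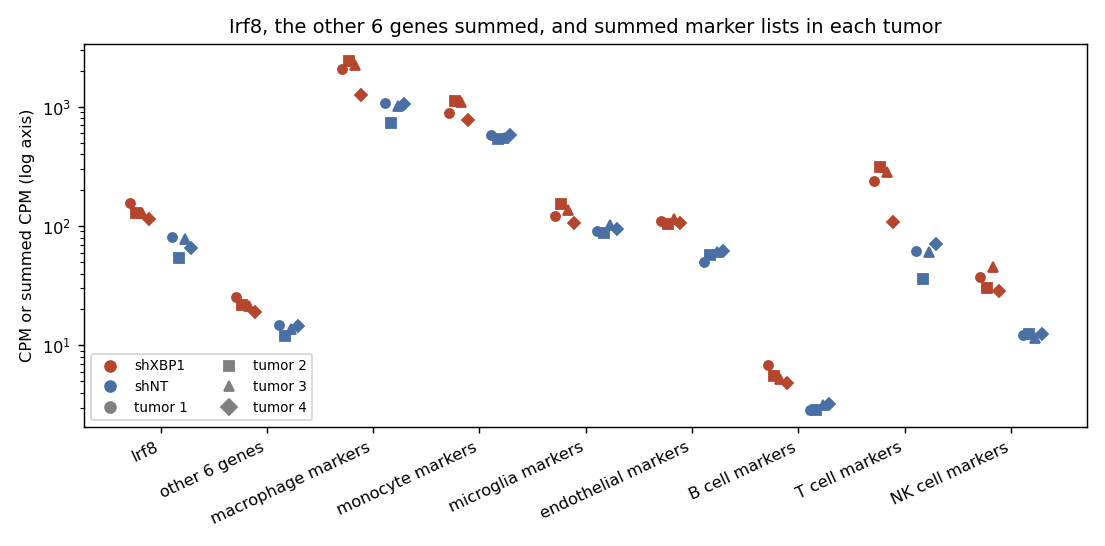
Level of Irf8, summed level of the other 6 dendritic cell genes and summed level of each list of markers of other cells in CPM (vertical log axis) in the 4 shXBP1 tumors (red, left of each pair) and the 4 shNT tumors (blue), with symbols for the tumor number. In each column the shXBP1 tumors lie above the shNT tumors, and shXBP1 tumor 4 is the lowest of its group for Irf8, for the other 6 genes and for the macrophage, monocyte, microglia, B cell, T cell and natural killer cell lists.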

How the data were processed

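RNA-seq of 8 tumors was used, 4 shXBP1 and 4 shNT, grouped by the genotype in the labels. Per the file headers the deposited table holds raw counts and FPKM per tumor and the authors' DESeq2 comparison, a log2 fold change with an adjusted p-value, given for 13307 genes. The deposited counts are whole numbers, not normalized, and the deposited FPKM are the authors' own values scaled by length and library size. Per the submitters' processing notes, GRCm38 served as genome. No aligner, counter or strand setting is stated in the labels or file headers used here.

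Genes were filtered with filterByExpr (about 10 counts in 4 libraries), scaled by TMM (factors 0.980 to 1.04) and tested with edgeR 4.0.16 in R 4.3.3 (robust quasi-likelihood, two-sided, Benjamini-Hochberg over 14907 genes). CPM are counts over TMM-scaled library sizes. Ratios used log2 CPM with a prior count of 2. The 7 genes, the 18 other lists and the tests were chosen with earlier results of these data known. Text names the 7 genes, Ptprc, Xbp1, up to 4 genes of a list with the smallest p, any gene of a list of 6 or fewer, and for each tested gene the 2 most correlated genes. DESeq2 1.42.0, limma 3.58.1, other scalings and filters, a replicate block, Ptprc as a covariate and leaving out each tumor were alternatives. The procedure was tested on simulated data. Coordinates are GENCODE M21 and promoters RefSeq GRCm38.p6. Within groups, any pair of tumors differed by a chi-square of at least 15.5 per degree of freedom, where 1 library deposited again would give about 1.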

Additional observations from a re-analysis of the deposited data

Results flagged for a closer look

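Of the genes named, 54 were screened, in 108 groups of 4 tumors, for a tumor whose gap to its nearest neighbour was a large share of the range of the group. Others, such as Ccr7, Cd40, Ccl22, Samsn1, Il12b and Siglec15, were not screened. By the 95% limit of the Dixon test 7 groups were found, where chance gives about 1 in 20 groups. None of these 7 groups belonged to the 7 dendritic cell genes. In shXBP1 tumor 4 this was Dpp4 (1.4999 CPM), Tlr7 (6.86 CPM), Ccl4 (23.3 CPM) and Glipr2 (110.1 CPM), each the lowest of its group. In shXBP1 tumor 2 it was Per2 (11.7 CPM), the highest. In shNT tumor 2 it was Jaml (3.06 CPM), the lowest, and in shNT tumor 3 it was Naaa (93.7 CPM), the highest.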

How the results depend on the processing

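The number of dendritic cell genes called higher, 5 of 6 tested, was 2 to 6 when each tumor was left out in turn, Clec9a among the 6, and 4 with a replicate block. Over all genes the counts were 2058 to 2904 higher and 1303 to 2401 lower when each tumor was left out, and over the listed genes 78 to 96 higher and 2 to 4 lower. Under limma voom 5 listed genes were lower, against 3. Deviations of same-numbered tumors correlated between -0.14 and -0.02, and those of other pairs between -0.09 and 0.17. No pairing by the numbers 1 to 4 was seen, but these correlations cannot exclude a weak one. With the replicate block 1304 genes were lower, against 1958. Calls of single genes were compared between settings only for the genes screened above. With the replicate block the calls of Zbtb46 (adjusted p = 0.0721 in edgeR), Flt3 (0.0712), Clec7a (0.0670) and Fscn1 (0.0638) were lost. With no filter Clec7a (adjusted p = 0.0854 in edgeR) and Fscn1 (0.0592) were lost, and with library sizes alone Fscn1 (0.0729).

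With Ptprc as a covariate 134 genes were called higher and 106 lower, with 0 of the 6 tested dendritic cell genes, 2 listed genes higher and 0 lower. Among the genes screened above, log2 fold changes that changed sign were Xcr1 (-0.33), Clec9a (-1.19), Retreg1 (-0.042), Glipr2 (-0.29), Katna1 (-0.20), Dpp4 (-0.50), Kmo (-0.064), Naaa (-0.035), Bst2 (-0.12), Tlr7 (-0.37), Tlr9 (-0.061), Clec12a (-0.29), Clec7a (-0.10), Itgax (-1.05) and Fscn1 (0.31). The cause was not tested. With Zbtb46 in place of Ptprc, chosen after seeing the data, the log2 ratios changed sign for Xcr1 (0.98, adjusted p = 0.143 in the exact permutation test), Clec9a (0.43, 0.314), Batf3 (0.80, 0.214) and Irf8 (0.57, 0.0714). The log2 fold change of Zbtb46 (0.37 in edgeR) was below those of these genes, and that of Ptprc (1.45) was above them. When each tumor was left out, the ratio differences to Ptprc ran from -1.27 to -0.93 for Zbtb46, -0.25 to 0.18 for Xcr1, -0.78 to -0.46 for Clec9a, -0.52 to 0.07 for Batf3, -0.63 to -0.35 for Irf8 and 0.37 to 0.92 for Cd209a. Depth limits Siglech, Cd209a and Clec9a, which rest on at most 57 counts in a tumor.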

Other observations

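Of 11 genes of mature migratory dendritic cells 6 rose, 4 did not pass and 1 fell. Ccr7, the receptor that guides them to lymph nodes and is also carried by naive T cells, was 5.36-fold higher (4.62 ± 1.39 CPM in shXBP1 tumors and 0.854 ± 0.402 CPM in shNT tumors, SD, n = 4 each; adjusted p = 0.000397 in edgeR). Cd40, a costimulatory receptor that B cells share, was 3.08-fold higher, the chemokine gene Ccl22 2.59-fold higher and Samsn1 2.55-fold higher. The gene that fell was Fscn1, an actin-bundling protein, chosen after its value was seen (log2 fold change -0.44, adjusted p = 0.0415 in edgeR). Its call was lost without any 1 of shXBP1 tumors 1 to 3 or shNT tumors 2 to 4, with adjusted p up to 0.111. Of 5 tested relatives of Siglech, Siglec1, a macrophage lectin, rose 1.84-fold and 4 did not pass. Log2 fold changes of these 4 were 0.83 for Siglece, 0.26 for Cd33, -0.87 for Siglecg (adjusted p = 0.0856 in edgeR) and -1.54 for Siglec15 (0.0620). Under limma voom 2 of the 5 were called lower.

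The genes whose log2 CPM followed each dendritic cell gene most closely over the 8 tumors were ranked by Pearson correlation among 12454 genes with a mean of at least 1 CPM. These coefficients, between 0.952 and 0.993, describe 8 tumors in 2 groups and were picked as the highest, so no test is given. For Irf8 they were Ptafr, the receptor of platelet-activating factor (0.991), and Csf2rb, the shared chain of the GM-CSF receptor (0.989). For Zbtb46 they were Sync (0.993) and Mylip (0.986), for Batf3 Rmi2 (0.979) and Sdc4 (0.952), and for Cd209a the collagen gene Col3a1 (0.992) and the clock gene Per2 (0.988). For Xcr1 they were Styk1 (0.992) and Retreg1 (0.982), and for Clec9a Glipr2 (0.972) and Katna1 (0.967).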
